A study of Homo sapiens with 6 samples.

Results

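CCN1, CCN2, CCN3 and ANKRD1 were picked by name from the gene table deposited for this study, and all 4 were among its 937 genes. The libraries were made from poly(A) RNA of LX-2, an established human hepatic stellate cell line. In the ALB group (3 libraries) the cells were given TGF-β1 (20 ng/mL, 24 h), followed by 24 h of albiflorin (ALB), a monoterpene glycoside of peony root, whereas in the TGF-β1 group (3 libraries, labelled control) plain medium took the place of ALB. All 6 libraries therefore came from TGF-β1-treated cells, no cells without TGF-β1 were analysed here, and the ALB concentration of the sequenced cells is not given in the sources used here. The labels also call the cells hepatocytes. Of 12 hepatocyte markers 0 were in the table, and of 17 stellate or myofibroblast markers 5 were, which does not tell how strongly the other markers were expressed. Of these 5, 3 were called lower with ALB (COL1A2, COL3A1 and TAGLN) and 2 higher (PDGFRA and NGFR). The table held 4 of 8 epithelial markers (SOX9 and the keratins KRT7, KRT8 and KRT18), all called lower with ALB (summed FPKM 122.0 to 159.9 in the ALB libraries and 289.9 to 296.2 in the TGF-β1 libraries), of 8 endothelial markers PECAM1 and TEK, also lower, and of 8 leukocyte markers ITGAM, which was higher. Of all 937 genes of the table, 56.9% were called lower with ALB and 42.5% higher. The part of other cell types in the results was not tested. The study's methods speak in general of independent experiments, but no source says of these libraries that the 3 of a group are separate cultures. The p-values therefore cover library-to-library spread, part or all of which may be technical.

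The CCN genes encode secreted matricellular proteins, which sit in the extracellular matrix and act on cells through integrins and heparan sulphate proteoglycans. Most are built from an IGFBP-like module, a von Willebrand type C module, a thrombospondin type 1 module and a cysteine-knot C-terminal module. CCN1 (older name CYR61) and CCN2 (CTGF) are immediate-early genes of growth factor and mechanical signalling, and CCN2 is a widely used marker of TGF-β driven fibrosis. ANKRD1 encodes the cardiac ankyrin repeat protein CARP, a relative of neither in sequence, which shuttles between the sarcomere and the nucleus in muscle. CCN1, CCN2 and ANKRD1 are the usual readouts of YAP and TAZ, coactivators that enter the nucleus when the Hippo kinases LATS1 and LATS2 are quiet and that bind DNA through TEAD factors. CCN3 (NOV) is a paralog that in several cell types is regulated opposite to CCN2.

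The table holds genes that the authors had called different between the same 6 libraries (fold change over 2, P under 0.01), so a test on it repeats a selection and is no independent evidence. Counts were tested with edgeR's quasi-likelihood test at library depths estimated from the ratio of counts to FPKM (fragments scaled to transcript length and library depth), about 3.58e+07 to 4.16e+07 fragments in the ALB group and 3.38e+07 to 3.81e+07 fragments in the TGF-β1 group. The table's own counts summed to between 1135478 and 1220505 in the ALB libraries and between 1820768 and 2020318 in the TGF-β1 libraries. The Benjamini-Hochberg adjustment ran over the whole table, with a threshold of 0.05. Of these genes 99.4% were called in either direction and 56.9% were called lower with ALB. Log2FC is the log2 fold change of ALB over TGF-β1, negative where ALB was lower, and SE is its standard error.

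The promoters of CCN2 and ANKRD1 are shown because both are textbook targets of YAP with TEAD and are the members that the RefSeq promoter table (GRCh38.p14) held. CCN1 and CCN3 had no entry. Capitals mark GGAATG, the core that TEAD factors bind, searched on both strands in the 250 bases before the RefSeq start. Bases run 5′ to 3′ on the minus strand, on which both genes lie.
CCN2, chr6:131951374-131951622: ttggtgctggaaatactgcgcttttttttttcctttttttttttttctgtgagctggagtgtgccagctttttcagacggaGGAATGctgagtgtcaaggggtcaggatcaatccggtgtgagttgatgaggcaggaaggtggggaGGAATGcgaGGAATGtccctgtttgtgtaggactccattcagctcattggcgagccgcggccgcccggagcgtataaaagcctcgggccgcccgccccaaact
ANKRD1, chr10:90921277-90921337: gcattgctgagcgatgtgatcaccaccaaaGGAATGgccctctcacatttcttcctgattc
ANKRD1, chr10:90921198-90921227: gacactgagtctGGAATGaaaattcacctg
CCN2 had 3 matches, whose first bases lie 169, 104 and 95 bases before the RefSeq start. At least 3 matches occurred in 0.0826% of the 35116 promoters listed there. ANKRD1 had 2 matches, 220 and 128 bases before its RefSeq start, and 0.940% of the promoters had at least 2, while 11.9% had at least 1. The AP-1 motif TGANTCA was found 0 times for CCN2 and 1 time for ANKRD1 (6.57% of promoters had at least 1), the SMAD palindrome GTCTAGAC 0 times for either (0.182%), the short SMAD element CAGAC 1 time for CCN2 and 2 times for ANKRD1 (13345 promoters had at least 1), and the serum response element CArG 0 times for either (1.16%). The ANKRD1 match at 128 shared 1 base with a CAGAC on the other strand, and the other TEAD matches shared 0 bases with these motifs. A match is only a run of letters in this window, and nothing here measured binding.

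CCN1 was the most abundant of the 4 genes in every library. Its FPKM was 256.8, 130.8 and 150.1 in the ALB libraries, against 483.5, 457.8 and 407.3 in the TGF-β1 libraries. The groups did not overlap, and the gap was narrowest for ALB replicate 1, which stood well above the other 2 ALB libraries. The means were 179.3 ± 67.9 FPKM with ALB and 449.5 ± 38.8 FPKM without it (SD, n = 3 each), log2FC -1.33 (SE 0.25, adjusted p = 0.000975, edgeR), which leaves 39.8% of the TGF-β1 level. By mean FPKM CCN1 stood 8th of the table's genes in the ALB group and 3rd in the TGF-β1 group. In mice, CCN1 is known to drive activated stellate cells into senescence during the resolution of fibrosis.

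CCN2 had the tightest replicates of the 4. Its FPKM was 91.2, 75.8 and 67.8 in the ALB libraries, against 249.2, 237.8 and 251.3 in the TGF-β1 libraries. All ALB libraries lay far below all TGF-β1 libraries, and the spread within a group was small beside the distance between the groups. The coefficient of variation was 15.2% with ALB and 2.96% without it. CCN2 fell by 1.65 on the log2 scale (SE 0.17, adjusted p = 5.21e-05, edgeR), to 31.8% of the level in the TGF-β1 group, and stood 23rd in the ALB group and 10th in the TGF-β1 group by mean FPKM.

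CCN3 was the least abundant of the 4 genes in every library, under 1 FPKM. Its FPKM was 0.529, 0.305 and 0.181 in the ALB libraries, against 0.992, 0.823 and 0.793 in the TGF-β1 libraries. The values rest on 47, 27 and 19 counts with ALB and on 93, 72 and 66 counts without it. For the lowest of these, 19 counts in ALB replicate 3, the exact Poisson 95% interval is 11.4 to 29.7 counts, which covers counting error only. CCN3 moved in the same direction as CCN1 and CCN2, with log2FC -1.35 (SE 0.38, adjusted p = 0.00734, edgeR), and its groups did not overlap either. It stood 797th of 937 genes by mean FPKM in the ALB group and 623rd in the TGF-β1 group, and its coefficient of variation with ALB, 52.1%, was the largest of the 4 genes.

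ANKRD1 changed most. Its FPKM was 19.7, 11.6 and 9.44 in the ALB libraries, against 95.2, 84.8 and 99.9 in the TGF-β1 libraries. Even the highest ALB library was several-fold below the lowest TGF-β1 library. ANKRD1 fell by 2.78 on the log2 scale (SE 0.28, adjusted p = 4.99e-05, edgeR), to 14.6% of the TGF-β1 level. Among the 537 genes of the table with a negative fold change ANKRD1 stood 47th by size of the change, CCN2 183rd, CCN3 284th and CCN1 293rd, and the median log2 fold change of those genes was -1.39, so that CCN1 and CCN3 lay near the middle of the lower genes. A two-sided exact permutation test of FPKM gave p = 0.1 for each of the 4 genes, the smallest p that 3 libraries against 3 allow. All 4 were lower with ALB in 3 of 3 libraries and all 4 were called lower, in a table where 56.9% of genes were called lower and in 54.9% the ALB libraries all lay below the TGF-β1 libraries. In bulk RNA fewer expressing cells and less RNA per cell cannot be told apart.

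**Figure D1:**
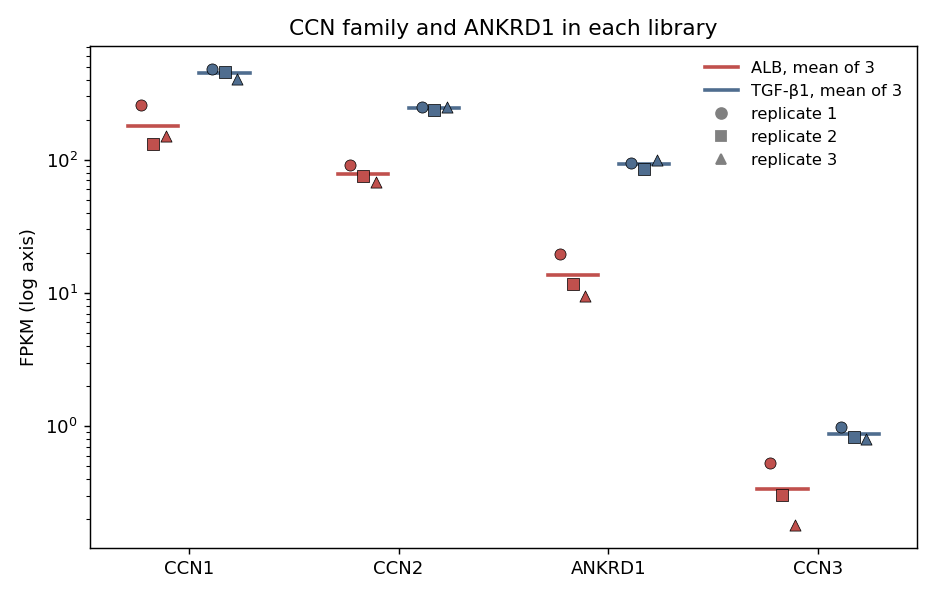
FPKM (log axis) of each gene in the 3 ALB libraries (red) and the 3 TGF-β1 libraries (blue), with symbols for replicates and a bar at the mean. The groups of every gene stand apart, ALB replicate 1 (red circle) is the highest ALB library for all 4 genes, and CCN3 lies under 1 FPKM in all 6 libraries.

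Of the 4 calls only that of CCN3 was lost under another scaling of the libraries, while that of CCN1 came near the threshold. With TMM factors estimated on these genes the table's median log2FC was -0.37, against -0.97 at the estimated depths, and the table's calls to 331 lower and 400 higher genes, against 533 and 398. CCN3 then had log2FC -0.77 (adjusted p = 0.0853, edgeR), while CCN1 (-0.72, adjusted p = 0.0348), CCN2 (-1.05) and ANKRD1 (-2.18) were still called lower by edgeR. TMM takes most genes as unchanged, which a table of called genes does not meet. The table itself holds a mark of the authors' scale: at the estimated depths 0 genes had a log2 fold change between -0.88 and 1.11, a gap 1.99 wide, where a fold threshold of 2 in either direction leaves a gap centred on 0. Under TMM the gap ran from -0.26 to 1.70. With the depths shifted by 0.113 to centre the gap, the log2 fold changes were -1.44 for CCN1, -1.77 for CCN2, -1.47 for CCN3 and -2.89 for ANKRD1. All 4 were then called lower, as were 535 of the 937 genes.

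**Figure D2:**
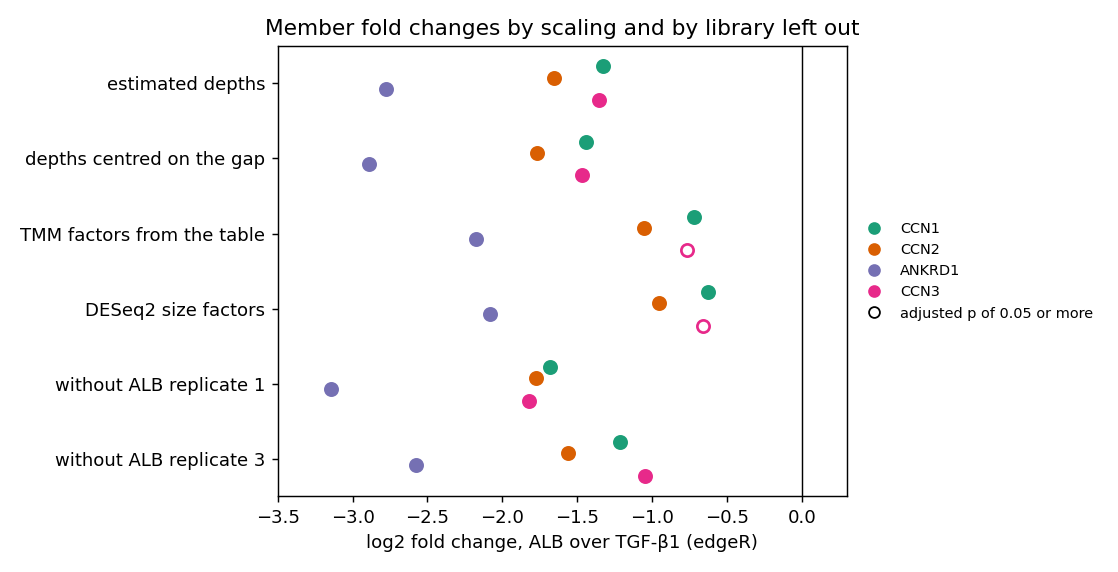
Log2 fold change (ALB over TGF-β1, edgeR) of each gene under 4 scalings of the libraries and with ALB replicate 1 or 3 left out, with open symbols where the adjusted p was 0.05 or more. ANKRD1 is the lowest in every row, and CCN3 is open under TMM and under DESeq2's size factors.

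A ratio of 2 genes within a library needs no depth, so the paralogs were set against one another and against ANKRD1 on such ratios, with limma over all genes of the table for each gene used as denominator. There were 6 pairs. Of the other 936 genes, 7.26% were called lower relative to CCN1, 6.3% relative to CCN2 and 5.34% relative to CCN3. In FPKM, CCN2 exceeded ANKRD1 4.62, 6.52 and 7.18 times in the ALB libraries, against 2.62, 2.80 and 2.52 times in the TGF-β1 libraries. These ratios did not overlap between the groups, and ALB replicate 1 lay nearest to the TGF-β1 libraries. The log2 fold change of ANKRD1 was lower than that of CCN2 by a difference of -1.18 (95% interval -1.72 to -0.64, adjusted p = 0.00265, limma). CCN1 exceeded ANKRD1 13.0, 11.3 and 15.9 times in the ALB libraries, against 5.08, 5.40 and 4.08 times in the TGF-β1 libraries, a difference of -1.46 (95% interval -2.34 to -0.57, adjusted p = 0.00494, limma). ANKRD1 exceeded CCN3 37.3, 38.1 and 52.1 times with ALB, against 96.0, 103.1 and 125.9 times without it, a difference of -1.39 (95% interval -2.52 to -0.26, adjusted p = 0.0325, limma). The ratio of ANKRD1 to each CCN gene thus fell in 3 of 3 ALB libraries. Two-sided exact permutation tests of the log2 ratios gave p = 0.1 for these 3 pairs, the smallest p that the design allows. That p restates that the ratios did not overlap between the groups. For how many of the other 936 genes such a ratio did not overlap was not counted, so this separation has no background share here.

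The difference from CCN2 passed with each library left out. That from CCN1 did not pass without ALB replicate 3 (adjusted p = 0.0517, limma) or without TGF-β1 replicate 3 (adjusted p = 0.0616, limma). That from CCN3 did not pass without ALB replicate 2 (adjusted p = 0.114, limma), nor without TGF-β1 replicate 1, 2 or 3 (adjusted p = 0.0754, 0.0927 and 0.143, limma).

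Among the 3 CCN paralogs no difference in response passed. CCN1 exceeded CCN2 2.82, 1.73 and 2.21 times in the ALB libraries, against 1.94, 1.93 and 1.62 times in the TGF-β1 libraries, so the groups overlapped. The difference of log2 fold changes was -0.27 for CCN2 over CCN1 (95% interval -1.16 to 0.61, adjusted p = 0.681, limma), -0.07 for CCN3 over CCN1 (95% interval -0.97 to 0.84, adjusted p = 0.930, limma) and 0.21 for CCN3 over CCN2 (95% interval -0.49 to 0.91, adjusted p = 0.573, limma). These intervals still allow differences of close to 1 on the log2 scale, and the exact permutation p-values were 0.3, 1 and 0.6. The sign of each comparison with CCN3 changed when a single ALB library was left out.

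**Figure D3:**
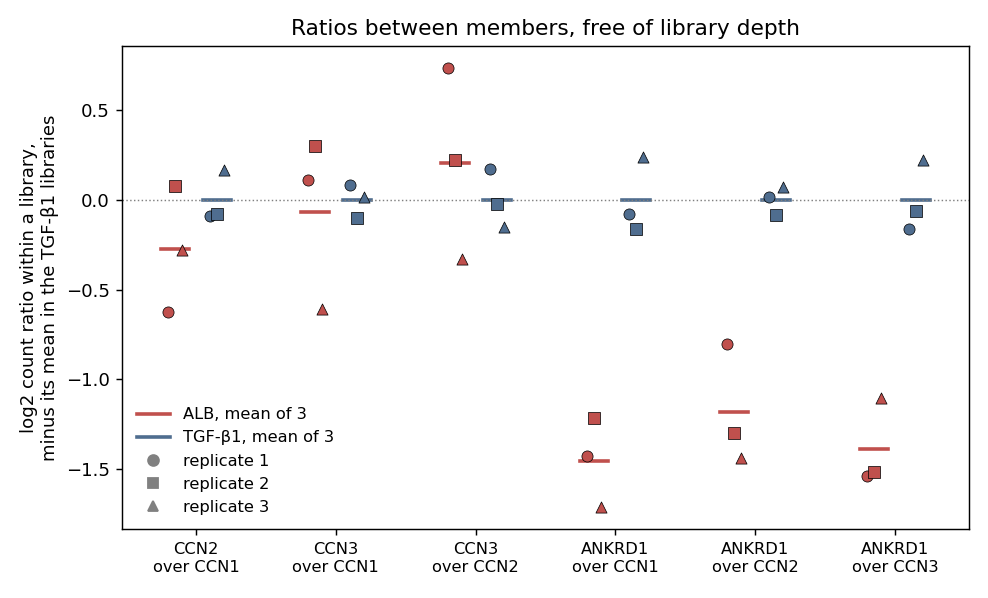
Log2 count ratio of each pair within a library, minus its mean in the TGF-β1 libraries, for ALB (red) and TGF-β1 (blue) libraries with bars at the means. The 3 pairs with ANKRD1 have all ALB points below all TGF-β1 points, and the 3 pairs of CCN genes overlap.

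The order CCN1, CCN2, ANKRD1, CCN3 by FPKM held in 6 of 6 libraries. ANKRD1 made up 5.36%, 5.32% and 4.15% of the summed FPKM of the 4 genes in the ALB libraries, against 11.5%, 10.9% and 13.2% in the TGF-β1 libraries. The share of CCN1 was 69.7%, 59.9% and 66.0% with ALB, against 58.3%, 58.6% and 53.6% without it. The ALB shares of ANKRD1 lay below all its TGF-β1 shares, and those of CCN1 above, by a small margin in ALB replicate 2. The 4 shares of a library make up a fixed whole, so a smaller share of ANKRD1 raises the others. The higher share of CCN1 is therefore no separate result, and its ratio to CCN2 overlapped between the groups.

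Within the ALB group the 4 genes shared a library order at the top. ALB replicate 1 was the highest ALB library for each of them, at 57.1% of the mean TGF-β1 FPKM for CCN1, 37.1% for CCN2, 60.9% for CCN3 and 21.1% for ANKRD1. ALB replicate 2 stood at 29.1%, 30.8%, 35.1% and 12.5% and ALB replicate 3 at 33.4%, 27.5%, 20.8% and 10.1% of those means for the same genes in the same order. Over all 537 genes with a negative fold change, ALB replicate 1 was the highest ALB library in 36.7%, replicate 2 in 37.4% and replicate 3 in 25.9%. The median log2 difference of those genes from the TGF-β1 mean was -1.40, -1.35 and -1.54 in ALB replicates 1, 2 and 3, so the lower genes as a whole did not place replicate 1 apart. Without ALB replicate 1 the log2 fold changes were -1.68 for CCN1, -1.78 for CCN2, -1.82 for CCN3 and -3.15 for ANKRD1. Without any single library all 4 genes were called lower, in fits that called 512 to 518 of the 937 genes lower. The part of depth, batch or culture in the order of the ALB libraries was not tested.

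The genes are read apart from one another by their sequences. Between the annotated transcripts (GENCODE 29) the longest shared exact stretch was 18 bases for CCN1 and CCN2, 16 for CCN2 and CCN3 and 12 for CCN1 and CCN3, and ANKRD1 shared at most 12 bases with any of them. In GRCh38 with GENCODE 29, CCN1 lies on chromosome 1 from 85580761 to 85583962 on the plus strand, CCN2 on chromosome 6 from 131948176 to 131951373 and ANKRD1 on chromosome 10 from 90912096 to 90921276, both on the minus strand, and CCN3 lies on chromosome 8. The build of the deposited values is not given in the sources used here. The transcript length implied by counts over FPKM was 2250 bases for CCN1, 2326 for CCN2 and 2469 for CCN3, against annotated lengths of 2290, 2339 and 2522 bases. For ANKRD1 it was 1781 bases, 198 fewer than the annotated 1979, and the GENCODE start of ANKRD1 lies 189 bases upstream of the RefSeq start. The second TEAD match of ANKRD1 lies between these starts.

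The rest of the CCN family, CCN4, CCN5 and CCN6, was not among the table's genes, and their levels were not analysed here. Of a list of 22 genes used as readouts of YAP and TAZ with TEAD, 9 were in the table and 9 were called lower with ALB, with a median log2FC of -1.46, close to the -1.39 of all genes with a negative fold change (the table as a whole, higher genes included, had -0.97). Such a count stands against the 56.9% of the table called lower, and 13 listed genes have no value here. Besides CCN1, CCN2 and ANKRD1 the list holds 6 of these genes. TGFB2, a TGF-β ligand, had 2.48, 1.60 and 1.71 FPKM in the ALB libraries, against 32.2, 20.1 and 39.6 FPKM in the TGF-β1 libraries, log2FC -4.00 (SE 0.30). It was the only listed target with a lower log2FC than ANKRD1. CCDC80, a secreted matrix protein, had 3.09, 4.49 and 5.13 FPKM with ALB, against 11.5, 13.7 and 12.4 FPKM without it (log2FC -1.74, SE 0.16). CCDC80 went with CCN2 in size, but its lowest ALB library was replicate 1, where the CCN genes and ANKRD1 had their highest. CRIM1, a membrane protein that like the CCN proteins has an IGFBP domain, had 22.4, 23.5 and 23.2 FPKM with ALB, against 62.1, 55.3 and 65.4 FPKM without it (log2FC -1.40, SE 0.15). Its ALB libraries were nearly level. MYOF, the membrane repair protein myoferlin, had 2.87, 2.19 and 1.17 FPKM with ALB, against 4.24, 4.03 and 4.18 FPKM without it, and here too ALB replicate 1 was the highest of its group. Log2FC was -1.46 (SE 0.20) for RBMS3, an RNA-binding protein, and -0.91 (SE 0.19) for FJX1, a homolog of fly four-jointed. With TMM factors from the table MYOF and FJX1 were no longer called (adjusted p = 0.169 and 0.216, edgeR), and the other 7 were.

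**Figure D4:**
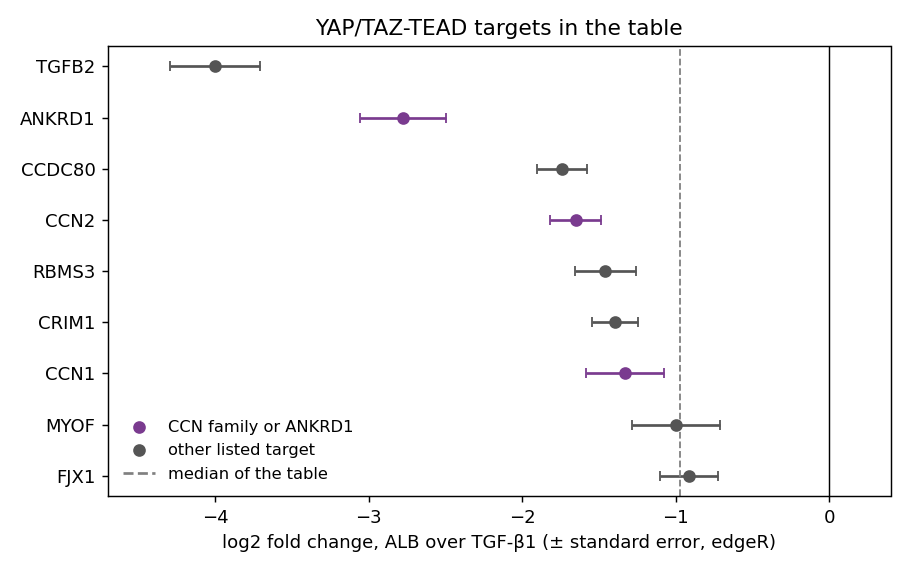
Log2 fold change (ALB over TGF-β1, edgeR, bars are 1 standard error) of the 9 listed YAP/TAZ-TEAD targets in the table, with the CCN genes and ANKRD1 in purple and a dashed line at the table's median of -0.97. TGFB2 and ANKRD1 lie lowest, at -4.00 and -2.78, and MYOF and FJX1 near the dashed line.

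Of 37 components of the Hippo pathway, 3 were in the table and all 3 were called lower, or 2 with DESeq2's size factors, under which VGLL3 was lost (adjusted p = 0.106, DESeq2). The other 34 have no value here. Such a count stands against 56.9% of all 937 genes called lower at the estimated depths. With DESeq2's own size factors 278 of the 937 genes were called lower. FRMD6, an upstream FERM-domain protein, averaged 113.2 ± 11.4 FPKM with ALB and 281.4 ± 32.9 FPKM without it (log2FC -1.34, SE 0.16). NUAK1, a kinase, and VGLL3, a TEAD cofactor, had log2FC -1.20 (SE 0.17) and -1.08 (SE 0.22). YAP1, WWTR1 (TAZ), the TEAD genes and LATS1 and LATS2 were not among the 937 genes, and neither YAP location nor phosphorylation was measured.

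SRF and SMAD factors are also known to act on CCN2. Of 26 targets and coactivators of SRF, the serum response factor, 7 were in the table and all 7 were called lower (median log2 fold change -1.29). The 5 with the largest change were MYOCD, the coactivator myocardin (-3.80), ACTG2, a smooth muscle actin (-2.62), TGFB1I1, the focal adhesion protein Hic-5 (-1.36), MYL9, a myosin light chain (-1.29) and TAGLN, transgelin (-1.14). Under TMM factors 4 of the 7 passed. Of 24 TGF-β and SMAD targets 8 were in the table, CCN2 among them, and 7 were called lower and 1 higher (median -1.68). COL3A1 (-3.04), THBS1 (-2.65) and COL1A2 (-2.55), genes of matrix proteins, were larger changes than that of CCN2. FN1, also of a matrix protein, was close to CCN2 (-1.70, SE 0.30, against -1.65, SE 0.17). Its FPKM was 156.2, 367.5 and 374.6 in the ALB libraries. The gene that rose was the cytokine IL11 (1.13). With TMM factors 6 of these were called lower, TGFBI being lost (adjusted p = 0.231, edgeR, named after its values were seen). The other 19 SRF genes and 16 SMAD targets have no value here, and 56.9% of the table was called lower.

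Of 23 listed receptors and partners of CCN proteins 4 were in the table, of which 3 were called higher with ALB and 1 lower, in a table where 42.5% of genes were called higher. The other 19 have no value here. SDC4, the heparan sulphate proteoglycan syndecan 4, a coreceptor for CCN2, averaged 216.9 ± 14.4 FPKM with ALB and 87.0 ± 7.33 FPKM without it (SD, n = 3 each, log2FC 1.32, SE 0.15). BMP4, of a ligand family that CCN2 binds, had log2FC 1.77 (SE 0.28), and ITGAM, an integrin chain of leukocytes, 1.45 (SE 0.37) at means of only 0.460 FPKM with ALB and 0.168 FPKM without it. FN1, fibronectin, was the partner that fell, with log2FC -1.70. Of 4 metalloproteinases known to cleave CCN2, 0 were in the table. Of 14 other proteins with an IGFBP domain 3 were, with log2 fold changes of -2.82 for IGFBP5, -1.40 for CRIM1 and 1.62 for HTRA3, a secreted serine protease. Of 9 genes of the ANKRD1 family and its muscle partners 2 were in the table, ANKRD1 itself and MYPN, myopalladin, which anchors CARP in the sarcomere (log2FC -1.24, SE 0.36, at means of 0.164 FPKM with ALB and 0.343 FPKM without it). MYPN was not called with TMM factors (adjusted p = 0.0870, edgeR). Of 10 cardiac and skeletal muscle markers only NPPB was in the table, summing to between 0.205 and 0.417 FPKM in the ALB libraries and between 2.05 and 5.79 FPKM in the TGF-β1 libraries.

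The genes whose pattern over the 6 libraries was most like that of each member were found among 546 genes with a symbol and a mean of at least 1 FPKM (547 for CCN3, which is itself under that mean), by the root mean square distance of log2 FPKM centred on each gene's mean. For CCN1 these were TGFB1I1, PDLIM7 and ITGBL1 (distances 0.148, 0.153 and 0.158), and for CCN2 SGK1, CALD1 and CLDN11 (0.0564, 0.0985 and 0.102). For CCN3 they were CACNG4, TSPAN2 and FILIP1L (0.213, 0.217 and 0.224), and for ANKRD1 LRRC17, ST6GALNAC5 and KRT80 (0.162, 0.163 and 0.231). CCN1, CCN2 and ANKRD1 were not among the 3 nearest genes of any other member. CCN3, under that mean, was no candidate, and by its distance it would stand 50th from CCN1, 124th from CCN2 and 91st from ANKRD1. The distance of CCN2 from CCN1 was 0.260, the 30th smallest from CCN1 and the 65th smallest from CCN2. ANKRD1 lay 0.754 from CCN1 and 0.624 from CCN2. It stood 286th from CCN1 and 288th from CCN2, whereas from ANKRD1 these genes stood 111th and 69th.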

How the data were processed

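Poly(A) RNA of 6 LX-2 libraries was sequenced (Illumina NovaSeq X Plus). The authors deposited unnormalized counts and FPKM for the 937 genes they had called with DESeq2 (fold change over 2, P under 0.01). CASAVA 1.4 and mouse builds are named in the submitters' processing notes, although the gene names are human. For aligner, counter, annotation and human build: not given in the sources used here. Columns were matched to samples by the group's initial and number. In the TGF-β1 group, labelled control, the match rests on the series design and the number.

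Relative depths came from counts over FPKM of 565 genes whose 6 counts were all 50 or more, and 44 single-transcript genes of GENCODE 29 set the scale. Counts were tested with edgeR 4.0.16 (R 4.3.3) over all genes, and ratios between members with limma 3.58.1 on log2(count + 0.5). For edgeR, SE is the size of log2FC divided by the root of its F statistic. Limma on log2(FPKM + 1) understates the change of low genes such as CCN3. Exact tests used scipy 1.17.1. Scripts were tested on simulated data. A planned motif count over the lower, higher and YAP target genes was void, since too few of them had a promoter entry, and was left out. Named genes were the 4 members, all members of the CCN and YAP/TAZ-TEAD lists in the table, up to 5 of each other list with the largest change, and the 3 genes nearest to each member. The members and lists were chosen with earlier results of these data known. Alternatives were other scalings, DESeq2 1.42.0, pseudocounts, filters, a replicate block and leaving out each library.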

Additional observations from a re-analysis of the deposited data

How the results depend on the processing

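The values rest on 3 libraries a group and on genes that had been selected on them. The direction of all 4 genes held under every scaling, tool, pseudocount and filter tried and with each library left out, except that CCN3, under 1 FPKM, has no value with the filter of a mean of at least 1 FPKM. The log2 fold change of CCN3 was not called with TMM factors (-0.77), with DESeq2's size factors in edgeR (-0.66, adjusted p = 0.133) or in DESeq2 with its own size factors (-0.66, adjusted p = 0.177), under which the table had 278 lower and 400 higher calls. CCN1 was still called under these scalings, but only just with DESeq2's size factors in edgeR (-0.62, adjusted p = 0.0483). These scalings also left 4 of the 7 SRF targets called lower and 1 of the 2 genes of the ANKRD1 family list, and the FPKM filter left 1 of these 2 as well. On log2(FPKM + 1) the log2 fold change of CCN3 was -0.49 and that of ANKRD1 -2.75, by the construction of the pseudocount.

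With each library left out, log2 fold changes ran from -1.68 to -1.15 for CCN1, from -1.78 to -1.56 for CCN2, from -1.82 to -1.05 for CCN3 and from -3.15 to -2.57 for ANKRD1. Differences ran from -1.57 to -1.33 for ANKRD1 over CCN1, from -1.37 to -1.05 for ANKRD1 over CCN2, from -1.53 to -1.28 for ANKRD1 over CCN3, from -0.25 to 0.21 for CCN3 over CCN1, from -0.05572 to 0.48 for CCN3 over CCN2 and from -0.45 to -0.10 for CCN2 over CCN1. With 5 added to each count the difference of CCN3 over CCN1 was 0.0677, against -0.07 with 0.5 added, by the construction of the pseudocount. CCN3 had 19 to 93 counts in a library and CCN1 10526 to 41580.

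The replicate numbers gave no clear sign of pairing: deviations of same-numbered libraries correlated at 0.0677, 0.0019 and -0.0881. ALB replicate 1 correlated best with its own number, and ALB replicates 2 and 3 with another. Such small correlations, of deviations from the mean of 3 libraries, cannot decide whether the cultures were paired. With the number as a replicate block 4 of 4 genes were called lower (log2 fold change -1.39 for CCN1, -1.66 for CCN2, -1.44 for CCN3 and -2.85 for ANKRD1), and the table had 532 lower and 393 higher calls. The order of the 4 levels held in 6 of 6 libraries with counts over annotated transcript length too.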
